A study of Mus musculus with 12 samples.

Results

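The RNA of 5 genes that mark resident peritoneal macrophages, *Gata6*, *Timd4*, *Icam2*, *Selp* and *Cxcl13*, was followed in cultured peritoneal cells before and after LPS. The genes were chosen by symbol as known markers of these cells, and all 5 were found among the 12850 genes of the deposited expression table. The cells were thioglycollate-elicited peritoneal exudate cells (PECs), drawn into the peritoneum by an injected irritant, from WT mice and from Zc3h12a S513A/S513A knock-in mice (S513A) of the C57BL/6 strain. The knock-in replaces a serine of Regnase-1, the RNase encoded by *Zc3h12a*, by an alanine in every cell of the mouse, and the values used here cannot show the codon change, so the genotype rests on the labels. PECs of each genotype were cultured for 0, 4 or 8 hr with LPS (100 ng/ml), a bacterial cell wall component, which gave 6 groups of 2 libraries, 12 in all. The 0 hr groups received no LPS, and every group, WT included, came from thioglycollate-injected mice. It was not stated whether the libraries of a group came from separate mice, so p values measure the spread between these libraries.

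Resident, or large, peritoneal macrophages live in the unstimulated peritoneal cavity, and their identity depends on the transcription factor GATA6, which is induced there by retinoic acid. They take up apoptotic cells through Tim-4 (*Timd4*), carry the adhesion molecules ICAM-2 and P-selectin (*Selp*), and attract B cells with the chemokine CXCL13. After thioglycollate the cavity fills with macrophages that derive from recruited monocytes, and resident cells become a minority. PECs are therefore a mixture, and in bulk RNA fewer cells of a type and less RNA per cell cannot be told apart.

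The 5 genes did not respond to LPS as a group. *Timd4* rose at 4 and 8 hr in both genotypes, and *Gata6* fell in WT PECs at 8 hr. That fall of *Gata6* depended on single libraries. Its log2 fold change in S513A PECs at 8 hr, -1.37, was just outside the threshold, and the genotypes were not shown to differ. *Selp* was lower at 4 and 8 hr in both genotypes, but it entered the tests only through libraries at 0 hr, so its direction was set by the filter on low values and its values are a description. *Icam2* passed no test. *Cxcl13* was lower in S513A than in WT PECs at 8 hr, and in S513A PECs it fell between 4 and 8 hr. Both of these *Cxcl13* results lost the threshold with voom weights and with only the libraries compared. The study, by a test that its methods do not name, reported that no gene differed between the genotypes at an adjusted p under 0.05. In each of the 4 comparisons of LPS with 0 hr, 2 or 3 of the 5 genes passed, *Selp* among them, beside 34.3% to 43.2% of all genes tested.

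**Figure D1:**
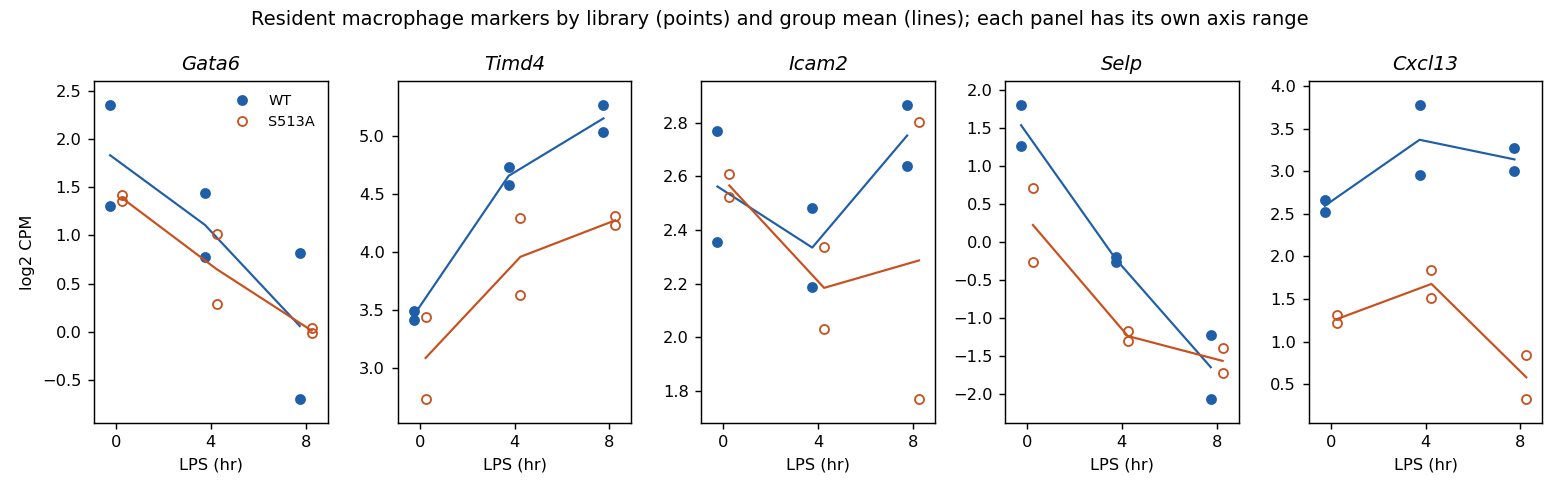
Level of the 5 genes in every library. The horizontal axis gives hours of LPS and the vertical axis log2 CPM, with a separate range in each panel; filled blue points are WT and open orange points S513A libraries, and lines join the means of 2 libraries. *Timd4* climbs from 2.73 to 3.49 at 0 hr to 4.24 to 5.27 at 8 hr, *Selp* drops from a highest value of 1.81 to a lowest of -2.07, and the S513A points of *Cxcl13* lie below the WT points at each time.

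The promoters of *Timd4*, *Selp* and *Cxcl13*, the 3 of the 5 genes that were matched in the promoter table, are shown so that their letters can be set beside their courses. Each sequence runs 5′ to 3′ on the gene's own strand, which is the plus strand for all 3, from 250 bases before the transcription start given by RefSeq to 50 bases after it, on GRCm38.p6. Capitals mark matches, on either strand, to 7 short motifs: a GATA motif (AGATAA, or AGATAG, and likewise TGATAA, or TGATAG), a PU.1 core (AGGAAG), a kB motif (GGGNNTTCC), an interferon response motif (GAAA, any 2 bases, GAAA), an AP-1 motif (TGANTCA), a STAT motif (TTCNNNGAA) and a retinoic acid receptor half-site (AGGTCA). No 2 of the matches overlap.
Timd4 promoter, chr11:46810549-46810848: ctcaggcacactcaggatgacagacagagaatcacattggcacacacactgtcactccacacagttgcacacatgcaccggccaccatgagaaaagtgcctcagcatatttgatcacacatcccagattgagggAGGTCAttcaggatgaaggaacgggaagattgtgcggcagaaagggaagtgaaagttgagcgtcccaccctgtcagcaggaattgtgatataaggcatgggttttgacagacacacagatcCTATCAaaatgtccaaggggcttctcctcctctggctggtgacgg
Selp promoter, chr1:164115014-164115313: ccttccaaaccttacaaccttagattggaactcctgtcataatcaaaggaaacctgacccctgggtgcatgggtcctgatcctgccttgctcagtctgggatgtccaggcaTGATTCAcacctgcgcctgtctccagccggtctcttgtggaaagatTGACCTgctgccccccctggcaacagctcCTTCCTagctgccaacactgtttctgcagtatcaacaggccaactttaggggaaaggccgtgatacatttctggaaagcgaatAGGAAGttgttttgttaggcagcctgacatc
Cxcl13 promoter, chr5:95956689-95956988: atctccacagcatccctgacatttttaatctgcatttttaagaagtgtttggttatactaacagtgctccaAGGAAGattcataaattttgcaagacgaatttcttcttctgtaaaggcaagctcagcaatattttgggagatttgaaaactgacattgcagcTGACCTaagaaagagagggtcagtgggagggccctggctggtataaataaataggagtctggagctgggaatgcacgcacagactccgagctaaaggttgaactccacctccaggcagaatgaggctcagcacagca

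The AGGTCA half-site was found in all 3 promoters, 116 bases before the start in *Timd4*, 93 bases before it in *Selp* and 87 bases before it in *Cxcl13*, and 16.3% of 32851 mouse promoters of the same length hold it. A GATA motif was found in *Timd4*, beginning 5 bases after the start, and 29.8% of promoters hold one. The PU.1 core was found in *Selp*, 64 bases before and 19 bases after the start, and in *Cxcl13*, 179 bases before it, and 35.4% of promoters hold it. The AP-1 motif was found in *Selp*, 139 bases before the start, and 7.81% of promoters hold it. The kB, interferon response and STAT letters were not found in these 3 windows, and 5.82%, 3.44% and 8.30% of promoters hold them. A match is a description of the letters, not evidence of binding.

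The libraries held 9525979 to 12439960 reads on the listed genes, with a median of 11137241, and the 5 genes took few of these. The deposited values are log2 CPM, the log2 of reads scaled to library size, and the whole reads behind them were recovered from the steps between low values. Reads per library ranged from 6 to 66 for *Gata6*, 75 to 405 for *Timd4*, 39 to 88 for *Icam2*, 2 to 45 for *Selp* and 14 to 156 for *Cxcl13*. A floor of 3 reads corresponds to a log2 CPM between -2.04 and -1.30, and neither such floors nor the read-based intervals cover more than counting error. Both replicates of each of the 6 groups were set side by side for the 5 genes, 30 pairs in all, and 5 pairs differed by more than counting error (two-sided exact binomial test, Benjamini-Hochberg adjusted over the 30). These were *Gata6* in WT at 0 hr, *Timd4* in S513A at 0 and 4 hr, *Icam2* in S513A at 8 hr and *Cxcl13* in WT at 4 hr. In both genotypes all 10 genes of a list of LPS response genes passed upward at 4 and 8 hr, with *Cxcl10*, an interferon-induced chemokine, at log2 fold changes of 6.48 to 11.82.

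Per kilobase of exon, the 5 genes split into 3 genes of middle and 2 genes of low level. In WT PECs at 0 hr, *Cxcl13* was at 5.25 CPM per kilobase and *Timd4* at 5.04, which put them at the 54.2 and 53.2 percentiles of 11957 genes with a known length. *Icam2* was at 3.10 CPM per kilobase, *Selp* at 0.657 and *Gata6* at 0.547. The libraries of *Cxcl13* and *Timd4* overlapped on this scale, as did those of *Selp* and *Gata6*, while *Icam2* stood apart from both pairs. For comparison, the pan-macrophage gene *Adgre1*, which encodes F4/80, was at 350.5 CPM per kilobase and the lysozyme gene *Lyz2* at 12531. The order changed with LPS, and at 8 hr *Timd4* led in both genotypes, at 16.4 CPM per kilobase in WT and 8.90 in S513A PECs. *Selp* was last at 8 hr, at 0.0723 and 0.0766 CPM per kilobase, and in WT its libraries overlapped those of *Gata6*.

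*Timd4* (Entrez gene 276891), on chromosome 11 of GRCm38 from 46810800 to 46844332, encodes the phosphatidylserine receptor Tim-4. In WT PECs its log2 CPM was 3.49 and 3.41 without LPS, 4.73 and 4.58 after 4 hr, and 5.04 and 5.27 after 8 hr. The S513A values were 2.73 and 3.44 without LPS, 3.63 and 4.29 after 4 hr, and 4.24 and 4.31 after 8 hr. Every library with LPS was above every 0 hr library of its genotype. In WT PECs, 66.9% and 77.2% of all genes tested did not overlap with 0 hr at 4 and 8 hr. The S513A shares were 72.8% and 73.4%. In WT PECs, *Timd4* rose 2.31-fold at 4 hr (log2 fold change 1.21, SE 0.25, limma adjusted p = 0.00266), where 41.3% of all genes tested passed, and 3.25-fold at 8 hr (log2 fold change 1.70, 95% confidence interval 1.16 to 2.25, limma adjusted p = 0.00035), where 34.3% passed. In S513A PECs, it rose 1.83-fold at 4 hr (log2 fold change 0.87, limma adjusted p = 0.0151), where 43.2% passed, and 2.28-fold at 8 hr (log2 fold change 1.19, 95% confidence interval 0.64 to 1.73, limma adjusted p = 0.00327), where 39.9% passed. The comparisons at 4 and 8 hr share their 0 hr libraries. The S513A rise at 4 hr did not pass without S513A 0 hr replicate 1 (0.52, limma adjusted p = 0.151) or without S513A 4 hr replicate 2 (0.54, limma adjusted p = 0.134).

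Between 4 and 8 hr *Timd4* did not pass in WT (log2 fold change 0.50, limma adjusted p = 0.21) or S513A PECs (0.32, limma adjusted p = 0.381). In those comparisons 14.2% and 18.3% of all genes tested passed. *Timd4* was lower in S513A than in WT PECs by 0.37, 0.70 and 0.88 on the log2 scale at 0, 4 and 8 hr, and none of these differences passed (limma adjusted p = 0.609, 0.622 and 0.395). The libraries of the genotypes overlapped at 0 hr, and those of S513A lay below those of WT at 4 and 8 hr. The genotypes did not overlap for 28.2% of all genes tested at 4 hr and 53.6% at 8 hr. The rise itself was smaller in S513A PECs by 0.33 at 4 hr and 0.51 at 8 hr, with 95% confidence intervals of the difference from -1.10 to 0.44 and from -1.28 to 0.26.

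*Selp* (Entrez gene 20344), on chromosome 1 of GRCm38 from 164115264 to 164150026, encodes P-selectin, an adhesion molecule that endothelial cells and platelets also store. It was counted at 34 and 45 reads in WT PECs without LPS, 9 and 9 after 4 hr, and 4 and 2 after 8 hr, with log2 CPM values of 1.27 and 1.81, -0.26 and -0.20, and -1.23 and -2.07. In S513A PECs it was counted at 9 and 19 reads without LPS, 4 and 3 after 4 hr, and 3 and 3 after 8 hr, with log2 CPM values of -0.26 and 0.71, -1.17 and -1.30, and -1.73 and -1.40. In each genotype, both libraries at 4 hr lay below both at 0 hr, and at 8 hr the reads were at or near the floor. Libraries at 4 and 0 hr did not overlap for 66.9% (WT) and 72.8% (S513A) of all genes tested. *Selp* passed the filter of 1 CPM in 2 libraries only through 3 libraries at 0 hr, so it had to be lower elsewhere, and the tests that follow lend its fall no support.

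In WT PECs the summed reads of *Selp* gave a level 3.57-fold lower at 4 hr (95% counting interval 2.12 to 6.33) and 10.1-fold lower at 8 hr (4.45 to 28.4) than at 0 hr. The fitted values on the log2 scale were -1.76 (SE 0.49, limma adjusted p = 0.0152) and -3.18 (SE 0.49, limma adjusted p = 0.000569). In S513A PECs the summed reads gave a level 3.22-fold lower at 4 hr (1.37 to 8.73) and 4.17-fold lower at 8 hr (1.69 to 12.3). The fitted log2 fold changes there were -1.46 (limma adjusted p = 0.0344) and -1.79 (limma adjusted p = 0.0154). The reads themselves, with a highest count of 9 in any library with LPS, are what these values describe.

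Of these values, 3 also depended on single libraries. The WT value at 4 hr did not pass without WT 0 hr replicate 2 (-1.49, limma adjusted p = 0.118) or without WT 4 hr replicate 1 (-1.73, limma adjusted p = 0.0557). The S513A value at 8 hr did not pass without S513A 0 hr replicate 2 (-1.30, limma adjusted p = 0.13) or without S513A 8 hr replicate 1 (-1.62, limma adjusted p = 0.0798). The S513A value at 4 hr did not pass without S513A 0 hr replicate 2 (-0.97, limma adjusted p = 0.241), S513A 4 hr replicate 1 (-1.52, limma adjusted p = 0.0833), S513A 4 hr replicate 2 (-1.40, limma adjusted p = 0.111), WT 0 hr replicate 1 (limma adjusted p = 0.0516) or WT 0 hr replicate 2 (limma adjusted p = 0.0536). Between 4 and 8 hr in WT PECs, *Selp* had a log2 fold change of -1.42 that did not pass (limma adjusted p = 0.0838).

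Between the genotypes, *Selp* at 0 hr was at -1.31 on the log2 scale, outside the threshold (limma adjusted p = 0.586). Both S513A libraries lay below both WT libraries, and 57.5% of all genes tested showed no overlap of these groups. The summed reads of *Selp* gave a level 2.41-fold lower (1.55 to 3.85) in S513A PECs. At 4 hr the log2 fold change was -1.01 (limma adjusted p = 0.622). At 8 hr both genotypes had 6 reads in all, and no fold is given. The fitted difference between the genotypes in the change by 8 hr was 1.40 (95% confidence interval -0.15 to 2.94, limma adjusted p = 0.275). With 6 reads in each genotype at 8 hr, this value mostly restates the gap at 0 hr. It cannot show a difference in the LPS response.

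Markers of endothelial cells were set beside *Selp*. The 4 of 8 listed endothelial markers that were measured summed to 88.0 to 98.1 CPM in WT PECs at 0 hr, 44.7 to 88.1 at 4 hr and 41.8 to 43.9 at 8 hr, with an overlap of 0 and 4 hr. In S513A PECs the sums were 84.6 to 94.7, 49.7 to 68.5 and 59.8 to 73.9 CPM, with an overlap of 4 and 8 hr. Of the 3 that reached the filter, *Kdr* fell at 4 hr in both genotypes and *Vwf* in WT PECs at 8 hr, and 0 passed in S513A PECs at 8 hr by limma. Most of these reads lay on *Vwf*, at 367 to 1129 reads, while the defining markers *Cdh5* and *Pecam1* had 0 to 16 and 1 to 9 reads. The 4 of 7 platelet markers that were measured, mostly *Pf4* at 2043 to 4760 reads, summed to more at 8 hr than at 0 hr in WT PECs, at 457.6 to 459.1 CPM against 168.3 to 234.1. *Itga2b*, *Gp1ba* and *Gp9* of that list were not measured. *Pf4*, *Ppbp* and *Gp6* passed upward in WT PECs at 8 hr, though *Gp6* had 1 to 4 reads at 0 hr and reached the filter only through libraries with LPS. *Treml1* did not pass and went the other way, from 17 to 18 reads at 0 hr to 8 to 10 at 8 hr. In S513A PECs the platelet sums were 320.5 to 324.9 CPM at 0 hr and 179.7 to 371.1 at 8 hr. The part of these markers in the course of *Selp* was not tested. *Selplg*, which encodes the P-selectin ligand PSGL-1, was at log2 fold changes of -0.38 (4 hr) and -0.27 (8 hr) in WT and -0.50 and -0.48 in S513A PECs, and the WT value at 8 hr did not pass (limma adjusted p = 0.0967).

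**Figure D2:**
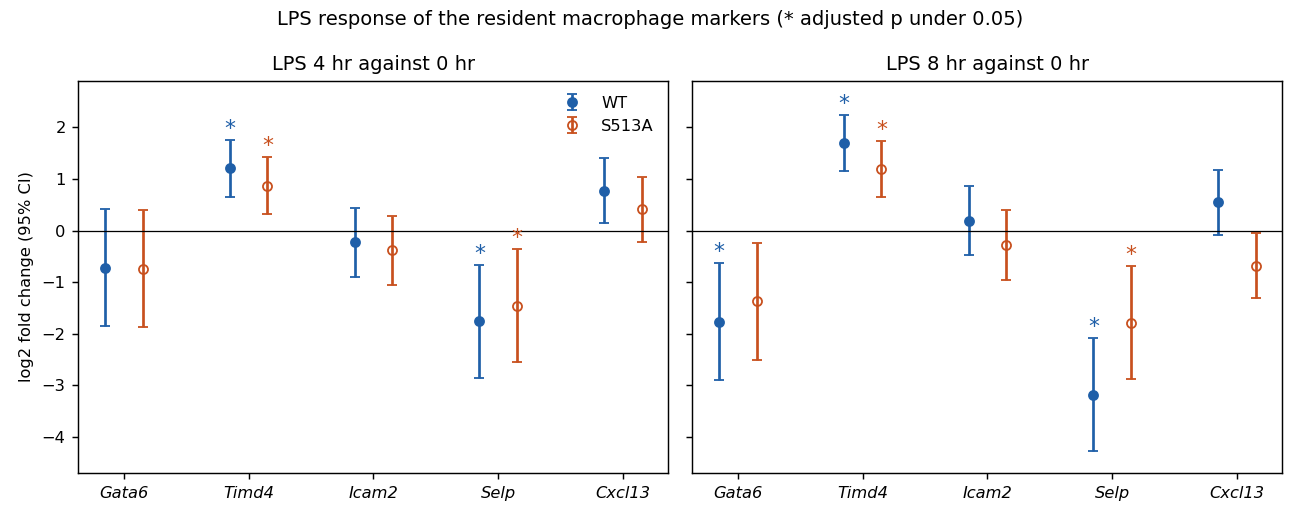
LPS response of the 5 genes at 4 hr (left) and 8 hr (right). The vertical axis is the log2 fold change against 0 hr of the same genotype with its 95% confidence interval from limma, for WT (filled blue) and S513A (open orange), and asterisks mark an adjusted p under 0.05. *Timd4* and *Selp* carry asterisks in both genotypes at both times, and *Gata6* carries one in WT at 8 hr (log2 fold change -1.77). The asterisks of *Selp* lend its fall no support, because it entered the tests only through libraries at 0 hr.

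*Gata6* (Entrez gene 14465), on chromosome 18 of GRCm38 from 11052064 to 11085635, encodes the transcription factor that defines resident peritoneal macrophages. Its log2 CPM in WT PECs was 1.31 and 2.36 without LPS, 0.78 and 1.44 after 4 hr, and -0.70 and 0.82 after 8 hr, from 35 and 66, 19 and 29, and 6 and 18 reads. The S513A values were 1.42 and 1.36 without LPS, 1.01 and 0.29 after 4 hr, and -0.01 and 0.04 after 8 hr, from 30 and 30, 20 and 10, and 11 and 9 reads. The 8 hr libraries lay below the 0 hr libraries in each genotype, and at 4 hr the WT libraries overlapped those at 0 hr. Libraries at 8 and 0 hr did not overlap for 77.2% (WT) and 73.4% (S513A) of all genes tested.

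In WT PECs, *Gata6* fell 3.41-fold by 8 hr (log2 fold change -1.77, 95% confidence interval -2.91 to -0.63, limma adjusted p = 0.0218). In S513A PECs the log2 fold change at 8 hr was -1.37 (95% confidence interval -2.51 to -0.24), just outside the threshold (limma adjusted p = 0.0547). The difference between these responses was 0.40, with a 95% confidence interval from -1.21 to 2.00, so that the genotypes were not shown to differ. The values at 4 hr, -0.72 in WT and -0.74 in S513A PECs, did not pass (limma adjusted p = 0.294 and 0.279). The WT fall did not pass without WT 0 hr replicate 2 (-1.24, limma adjusted p = 0.17) or without WT 8 hr replicate 1 (-1.01, limma adjusted p = 0.179). The S513A value passed with only the libraries compared (limma adjusted p = 0.0148) and with a replicate block within genotype (limma adjusted p = 0.0104). It also passed without WT 8 hr replicate 1 (limma adjusted p = 0.0276) or WT 8 hr replicate 2 (limma adjusted p = 0.0294), which enter that comparison only through the shared estimate of the spread.

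Between genotypes, the log2 fold change of *Gata6* was -0.44, -0.46 and -0.05 at 0, 4 and 8 hr (limma adjusted p = 0.744, 0.701 and 0.967). Its direction at 8 hr turned with quantile normalization and with total reads as the library size. Markers of mesothelial cells, which line the cavity, were near the floor. The 6 of 8 that were measured summed to 3.46 to 4.95 CPM in WT PECs at 0 hr and 1.81 to 1.90 at 8 hr, and to 1.51 to 2.98 and 0.758 to 1.55 CPM in S513A PECs, where 0 and 8 hr overlapped. None of the 6 reached the filter, *Msln* and *Upk3b* were at 0 reads in some S513A libraries, and the part of these cells in the *Gata6* values was not tested.

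The retinoic acid pathway, which lies upstream of *Gata6*, was represented by 7 genes of a list of 10, 6 of which reached the filter. *Aldh1a2*, which encodes a retinoic acid producing enzyme, rose in all 4 comparisons with 0 hr, with log2 fold changes of 0.76 to 1.00. *Rara* and *Rxra*, which encode receptors, fell at 4 hr in WT (-1.15 and -0.91) and S513A PECs (-0.86 and -1.03). *Rarb*, a receptor gene that is itself a retinoic acid target, had 9 to 17 reads per library at 0 hr, 2 to 6 with LPS in WT PECs and 1 or 2 with LPS in S513A PECs. It too reached the filter only through libraries at 0 hr, so its test lends no support and no fold is given. In all, 1 gene passed upward in each of the 4 comparisons. Downward, 2, 1, 4 and 1 passed in WT at 4 and 8 hr and S513A at 4 and 8 hr, *Rarb* being among those of S513A at both times. Among all genes tested, 19.4% to 23.1% rose and 14.9% to 20.2% fell.

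*Cxcl13* (Entrez gene 55985), on chromosome 5 of GRCm38 from 95956951 to 95961068, encodes a chemokine that draws B cells through the receptor CXCR5. In WT PECs its log2 CPM was 2.52 and 2.67 without LPS, 3.78 and 2.96 after 4 hr, and 3.00 and 3.28 after 8 hr. The S513A values were 1.22 and 1.31 without LPS, 1.84 and 1.51 after 4 hr, and 0.32 and 0.84 after 8 hr. Every S513A library was below every WT library of the same time. The S513A libraries at 8 hr were below those at 0 and 4 hr, while the WT libraries with LPS were above those at 0 hr. Between genotypes, 57.5%, 28.2% and 53.6% of all genes tested did not overlap at 0, 4 and 8 hr. In S513A PECs, 73.4% and 60.4% did not overlap between 8 hr and 0 or 4 hr. The WT shares at 4 and 8 hr against 0 hr were 66.9% and 77.2%.

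At 8 hr *Cxcl13* was 5.90-fold lower in S513A than in WT PECs (log2 fold change -2.56, 95% confidence interval -3.19 to -1.93, limma adjusted p = 0.0119), where 0.0337% of all genes tested passed. At 0 hr the log2 fold change was -1.33 (SE 0.29, limma adjusted p = 0.586), where 0.0337% passed. At 4 hr it was -1.69 (SE 0.29, limma adjusted p = 0.469), where 0.0168% passed. With only the libraries compared, the difference at 0 hr passed (limma adjusted p = 0.0403), but so did 693 of 11885 genes tested in that fit. The summed reads were 55 against 164 at 0 hr, 60 against 240 at 4 hr and 30 against 185 at 8 hr. The difference at 8 hr did not pass with voom weights (limma adjusted p = 0.222) or when only the libraries compared were fitted (limma adjusted p = 0.188). It also did not pass without WT 8 hr replicate 1 (-2.70, limma adjusted p = 0.144), WT 8 hr replicate 2 (-2.42, limma adjusted p = 0.342) or S513A 8 hr replicate 1 (-2.30, limma adjusted p = 0.125).

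The response of *Cxcl13* to LPS passed in neither genotype at 4 or 8 hr. In WT PECs the log2 fold change was 0.78 after 4 hr (95% confidence interval 0.14 to 1.41, limma adjusted p = 0.0503), and it was 0.55 after 8 hr (limma adjusted p = 0.166), which passed when only the libraries compared were fitted (limma adjusted p = 0.0261). The value at 4 hr rests on the higher of the 2 WT libraries and was 0.36 without WT 4 hr replicate 1 (limma adjusted p = 0.353) and 1.19 without WT 4 hr replicate 2 (limma adjusted p = 0.00784). It also passed without S513A 8 hr replicate 1 (limma adjusted p = 0.0401) or S513A 8 hr replicate 2 (limma adjusted p = 0.041). S513A PECs were at 0.41 after 4 hr (limma adjusted p = 0.274), and the value after 8 hr was -0.68 (limma adjusted p = 0.0806). The latter passed without S513A 8 hr replicate 2 (-0.94, limma adjusted p = 0.0465), WT 4 hr replicate 1 (limma adjusted p = 0.0374) or WT 4 hr replicate 2 (limma adjusted p = 0.0355).

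From 4 to 8 hr, *Cxcl13* fell 2.14-fold in S513A PECs (log2 fold change -1.10, 95% confidence interval -1.73 to -0.47, limma adjusted p = 0.0248), and it was at -0.23 in WT PECs (limma adjusted p = 0.628). The S513A fall did not pass with voom weights (limma adjusted p = 0.112), with only the libraries compared (limma adjusted p = 0.107) or without S513A 4 hr replicate 1 (-0.93, limma adjusted p = 0.0925), S513A 4 hr replicate 2 (-1.27, limma adjusted p = 0.0703) or S513A 8 hr replicate 1 (-0.84, limma adjusted p = 0.168). The LPS response by 8 hr differed between the genotypes by -1.23 (95% confidence interval -2.12 to -0.33, limma adjusted p = 0.196).

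**Figure D3:**
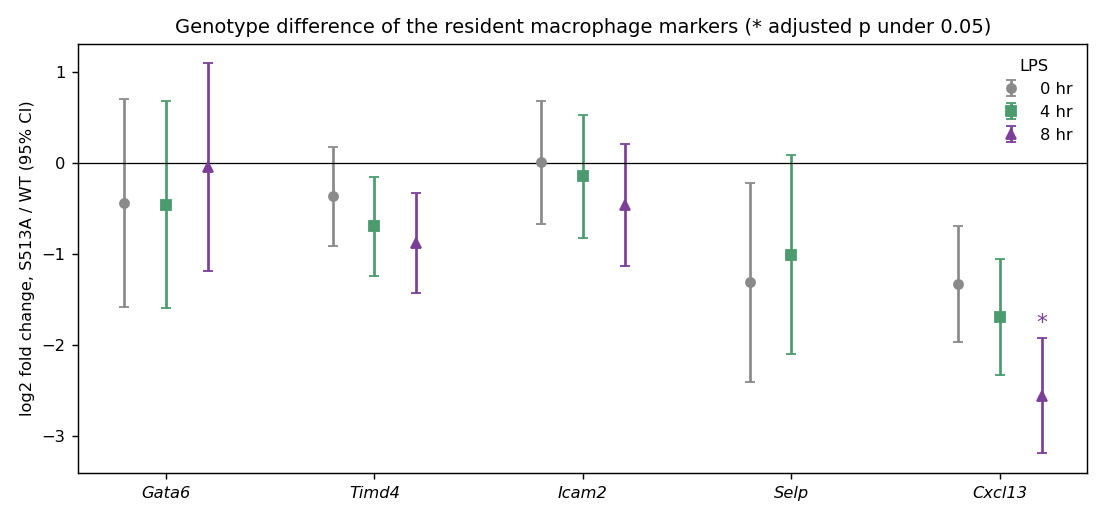
Difference between genotypes for the 5 genes. The vertical axis is the log2 fold change of S513A over WT with its 95% confidence interval from limma, at 0 hr (grey circles), 4 hr (green squares) and 8 hr (purple triangles). *Selp* at 8 hr is left out, having 2 to 4 reads per library. The asterisk marks *Cxcl13* at 8 hr (log2 fold change -2.56), where its adjusted p is under 0.05.

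None of the 5 genes passed a test of the genotype difference in the LPS response, and neither did any of the 11885 genes (limma, 0% at 4 hr and 0% at 8 hr). At an unadjusted p under 0.05 there were 0 of the 5 genes at 4 hr and 1 at 8 hr, namely *Cxcl13*, and 144 (1.21%) and 2405 (20.2%) of all genes. With voom weights the counts past the adjusted threshold were also 0, and the unadjusted counts were 130 and 2518. Without S513A 8 hr replicate 2, 651 genes passed at 8 hr, none of them among the 5. Between 4 and 8 hr in WT PECs, 0 of the 5 passed and 1, *Selp*, had an unadjusted p under 0.05, beside 29.4% of all genes. Between genotypes, 0 of the 5 passed at 0 hr and 0 at 4 hr, and 2 had an unadjusted p under 0.05 each time, *Selp* and *Cxcl13* at 0 hr and *Timd4* and *Cxcl13* at 4 hr, beside 7.98% and 7.01% of all genes. With voom weights 0 of the 5 passed in each of these 3 comparisons.

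Markers of other cells that can make or follow *Cxcl13* were set beside it. The 5 of 6 fibroblast markers that were measured summed to 40.8 to 82.5 CPM in the WT libraries and 20.2 to 59.2 in the S513A libraries. The low S513A sums were those of replicate 2 at each time, at 20.2 to 21.2 CPM. The median log2 fold change of the 5 markers between S513A and WT was -0.71, -1.002 and -0.60 at 0, 4 and 8 hr. The 4 of 5 B cell markers summed to 5.13 to 8.68 CPM in WT and 3.27 to 7.78 CPM in S513A libraries, and *Cxcr5* had 4 to 16 reads. The fibroblast sums of the genotypes overlapped at 0, 4 and 8 hr. The B cell sums overlapped at 4 hr, and those of S513A were below those of WT at 0 hr (3.27 to 4.39 against 5.16 to 6.85 CPM) and at 8 hr (4.05 to 4.87 against 5.13 to 8.68 CPM). The mesothelial sums given with *Gata6* were also below those of WT in S513A libraries at 0 and 8 hr. No fibroblast or B cell marker passed between the genotypes at 0, 4 or 8 hr by limma. The part of these cells in the *Cxcl13* difference was not tested.

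**Figure D4:**
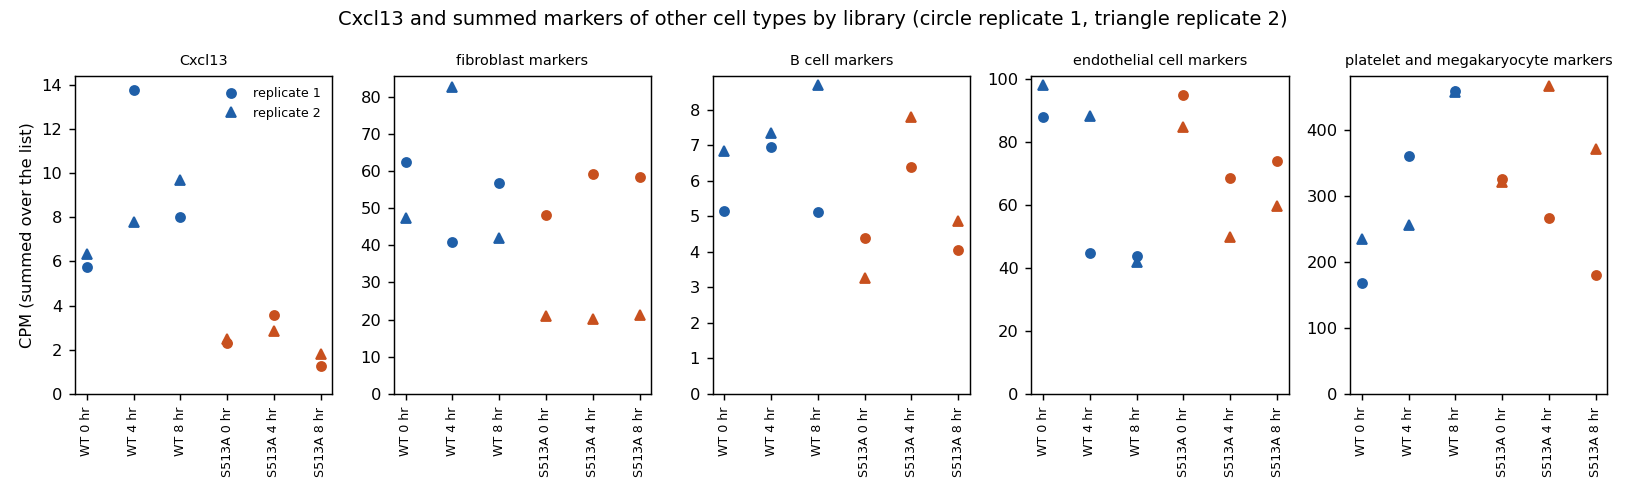
*Cxcl13* (left) and summed markers of 4 other cell types in every library. The vertical axis is CPM, summed over the measured genes of a list in all panels but the first, and starts at 0; blue is WT, orange S513A, circles replicate 1 and triangles replicate 2. The *Cxcl13* values of S513A lie below those of WT, the fibroblast sums are lowest, at 20.2 to 21.2 CPM, in the replicate 2 libraries of S513A, and the endothelial sums are lower at 8 hr (41.8 to 73.9 CPM) than at 0 hr (84.6 to 98.1 CPM) in both genotypes.

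*Icam2* (Entrez gene 15896), on the minus strand of chromosome 11 of GRCm38 from 106377656 to 106388075, encodes an adhesion molecule that binds the integrin LFA-1 and is also found on endothelial cells. In WT PECs its log2 CPM was 2.36 and 2.77 without LPS, 2.48 and 2.19 after 4 hr, and 2.64 and 2.87 after 8 hr. The S513A values were 2.61 and 2.52 without LPS, 2.03 and 2.34 after 4 hr, and 1.77 and 2.80 after 8 hr. The S513A libraries at 4 hr lay below those at 0 hr, and 72.8% of all genes tested did not overlap between these groups. The 0 and 8 hr libraries overlapped in both genotypes, and the widest gap between replicates was in S513A at 8 hr, at 39 and 64 reads.

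The log2 fold changes of *Icam2* against 0 hr were -0.23 and 0.19 in WT and -0.38 and -0.28 in S513A PECs at 4 and 8 hr (limma adjusted p = 0.588, 0.658, 0.346 and 0.496). Their 95% confidence intervals reached from -1.06 to 0.86 at most, and a 2-fold change in either direction lay outside every interval except that of S513A PECs at 4 hr. Without S513A 8 hr replicate 2, *Icam2* passed in S513A PECs at 8 hr (-0.80, limma adjusted p = 0.0371), and without S513A 8 hr replicate 1 it was at 0.24. Between genotypes it was at 0.00, -0.15 and -0.47 at 0, 4 and 8 hr (limma adjusted p = 0.998, 0.835 and 0.473).

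Of a list of 16 relatives of the 5 genes, with their receptors and ligands, 8 were measured, and 3 passed in all 4 comparisons with 0 hr. *Icam1*, the inducible partner of *Icam2* as a ligand of LFA-1, rose at log2 fold changes of 2.40 to 3.24, and *Itgal*, which encodes a chain of LFA-1, rose by at least 1.74. *Havcr2*, which encodes Tim-3, a family member of Tim-4, fell by 2.72 to 3.32. In all, 2 genes passed upward in each comparison, and 2, 1, 2 and 2 passed downward in WT at 4 and 8 hr and S513A at 4 and 8 hr, which left 4, 5, 4 and 4 that did not pass. Their median log2 fold change was 0.18, -0.14, 0.40 and 0.55. Among all genes tested, 19.4% to 23.1% rose and 14.9% to 20.2% fell in these 4 comparisons.

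Other genes for apoptotic cell uptake mostly went the other way from *Timd4*. Of 10 measured phosphatidylserine receptors and bridging proteins, 6 and 7 fell in WT PECs at 4 and 8 hr and 6 and 6 in S513A PECs, while 2 and 1 rose in each genotype. Among all genes tested, 14.9% to 20.2% fell and 19.4% to 23.1% rose in these 4 comparisons. *Itgb3*, an integrin chain gene, had log2 fold changes of -2.79 to -2.31, and *Gas6*, the bridging ligand of the TAM receptors, of -2.07 to -1.40. *Stab2*, a scavenger receptor gene, is counted among those that fell each time. Its libraries at 0 hr held 15 to 18 reads (WT) and 7 to 10 (S513A), and those with LPS 0 to 3. It reached the filter only through WT libraries at 0 hr, so the filter set the direction of its fall in WT PECs. In S513A PECs it stayed under 1 CPM at every time, and no fold is given. *Axl*, a TAM receptor gene, rose by 2.48 to 2.87. These genes had a median log2 fold change of -0.62 and -0.79 in WT and -0.50 and -0.91 in S513A PECs, beside 0.04, 0.03, -0.00 and -0.01 for all genes tested.

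Other genes of large peritoneal macrophages were divided like the 5 markers. Of the 22 measured in a list of 23, 10 rose and 4 fell in WT PECs at 4 hr and 5 rose and 5 fell at 8 hr. In S513A PECs 8 rose and 4 fell at 4 hr and 8 rose and 6 fell at 8 hr. Among all genes tested, 19.4% to 23.1% rose and 14.9% to 20.2% fell in these 4 comparisons. *F10*, which encodes coagulation factor X, rose by 1.75 to 2.17 on the log2 scale over the 4 comparisons, and *Serpinb2*, a plasminogen activator inhibitor gene that LPS is known to induce, by up to 3.45 (S513A at 4 hr). *Cd93*, a surface receptor gene, had log2 fold changes of -2.42 to -1.78 and *Bhlhe40*, a transcription factor gene, of -2.15 to -1.49. Their median log2 fold change was 0.27 and -0.17 in WT and 0.10 and 0.11 in S513A PECs. Between genotypes, 0 of the 22 passed at each time point by limma.

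Genes of small and monocyte-derived peritoneal macrophages did not rise as a group either. Of 14 measured in a list of 15, 3 and 3 rose in WT PECs at 4 and 8 hr and 2 and 3 in S513A PECs, and 1 and 2 fell in each genotype. Over these 4 comparisons, 22.6%, 19.4%, 23.1% and 20.9% of all genes tested rose and 18.7%, 14.9%, 20.2% and 19% fell. *Ly6c2*, a monocyte marker, rose by 1.83 to 3.03 on the log2 scale and *Clec10a*, a lectin gene, had log2 fold changes of -2.64 to -1.98. Pan-macrophage genes moved both ways, with *Cd14*, the LPS co-receptor gene, up by 2.64 to 3.81, *Adgre1* up by 0.87 to 1.41 and *Spi1*, which encodes PU.1, up by at least 0.45. Of the 10 pan-macrophage genes, 3, 4, 3 and 5 rose and 2, 3, 1 and 3 fell in WT at 4 and 8 hr and S513A at 4 and 8 hr.

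**Figure D5:**
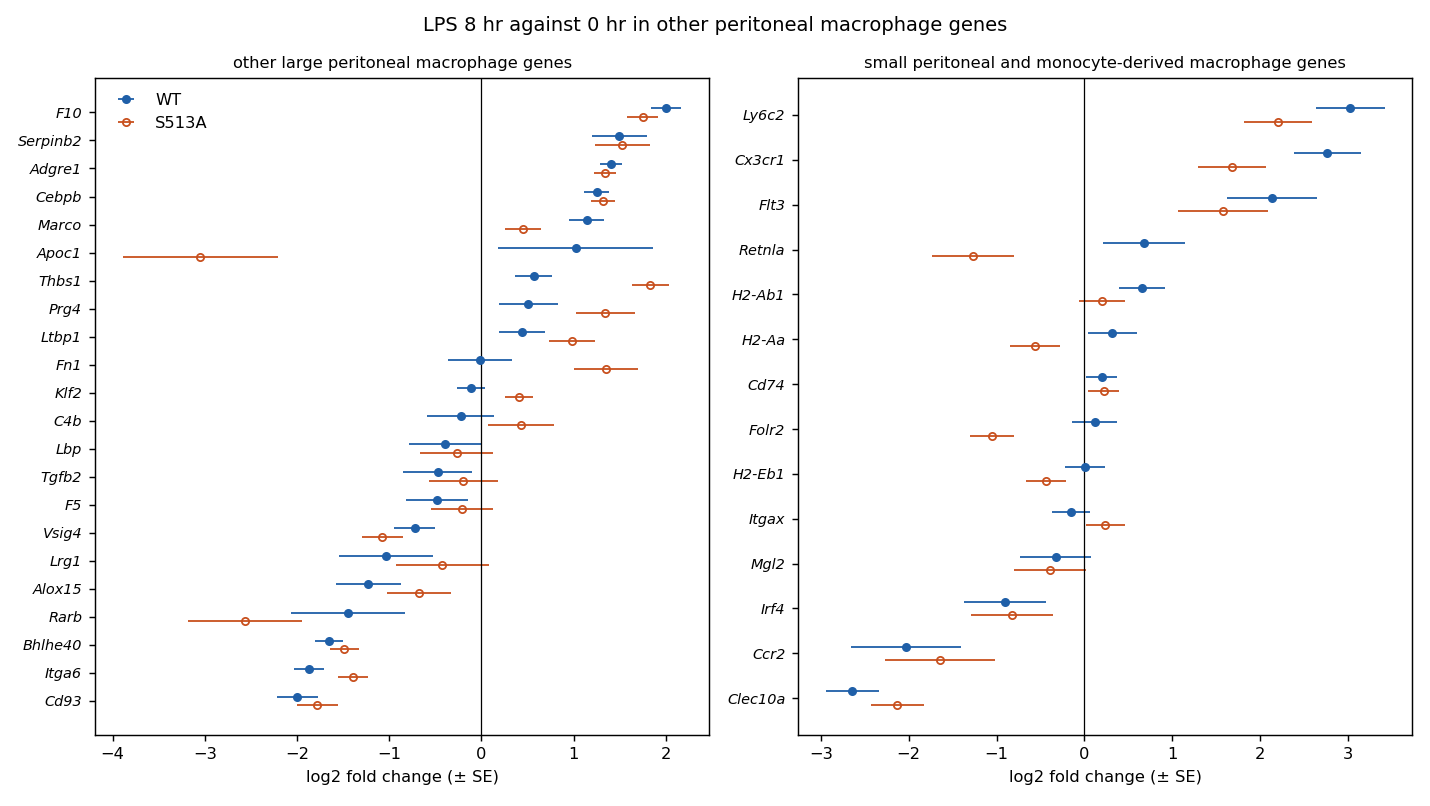
LPS response at 8 hr of other genes of large peritoneal macrophages (left) and of small and monocyte-derived ones (right). The horizontal axis is the log2 fold change against 0 hr with its SE from limma, in WT (filled blue) and S513A (open orange), with genes sorted by the WT value. Both lists spread to both sides of 0, from *F10* to *Cd93* on the left and from *Ly6c2* (3.03 in WT) to *Clec10a* (-2.64 in WT) on the right.

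Over the 12 libraries, *Gata6* and *Selp* had a Pearson r of 0.76 with each other, and *Timd4* had -0.60 with each of them. *Icam2* and *Cxcl13* had r of 0.35 with each other. These points share times, genotypes and libraries, so r describes them and carries no p. Among 11884 other genes, the 3 most like *Gata6* were *Ctsf*, *Fam171a1* and *Ptgis* (r = 0.94, 0.91 and 0.91), and the 3 most like *Selp* were *Nxpe5*, *Chd3* and *Alox5* (0.95, 0.95 and 0.95). The 3 most like *Timd4* were *Klra2*, *Acat2* and *Zdhhc12* (0.94, 0.94 and 0.92), and those most like *Icam2* were *Tfpi*, *Pgp* and *1700037H04Rik* (0.90, 0.89 and 0.89). *Cxcl13* had no gene as close, with *Rps4l*, *C1s1* and *Tex10* at 0.79, 0.79 and 0.78.

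Exons of *Gata6* share 93 bases with *1010001N08Rik* on the other strand, and exons of *Selp* share 186 and 438 bases with *Gm16587* and *Gm16548* on the other strand. The library kit does not mark strand, so reads of such pairs cannot be told apart.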

How the data were processed

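The 5 genes and all gene lists were chosen with earlier results of these data known. Per the labels and the study's methods, the authors prepared polyA RNA libraries with a kit that does not mark strand, mapped the reads to mm10 with HISAT2 and counted them with featureCounts 1.6.3. The authors deposited log2 CPM values for 12850 genes, 112 of them without a symbol. Adding 0.5 to the reads and dividing by an effective library size before the log2 gives these values, and undoing this gave whole reads back (within 0.05 read for all genes under 2000 reads). The program that made the log2 values is not given in the sources used here. All deposited columns were used.

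Groups came from the labels. One fit of the 6 group means was made with limma 3.58.1 in R 4.3.3 (6 residual degrees of freedom, prior following the mean) to the 11885 genes that reached 1 CPM in 2 or more libraries, with 11 contrasts. Tests were two-sided and adjusted by Benjamini-Hochberg over all genes tested, with a threshold of 0.05. Confidence intervals are at 95%, those of read ratios from the exact binomial. *Selp* contrasts between groups with only 2 to 4 reads per library were not given as folds, namely S513A at 8 against 4 hr and S513A against WT at 8 hr. The fitting steps were tested on simulated data with known fold changes. Besides the 5 genes, the text names up to 4 genes per list, those with the largest mean change among genes past the threshold in all 4 comparisons with 0 hr, and the 3 genes most correlated with each of the 5. A gene that this rule names is not reported here. *Lyz2*, *Selplg*, *Rara*, *Rxra*, *Rarb*, *Cxcr5* and the markers of other cells named with reads were chosen after their values were seen. Alternatives were no filter, a filter at a mean of 5 CPM, 1 CPM added before the log, median-ratio scaling, quantile normalization, a prior without a trend, voom weights, only the libraries compared, a replicate block over all groups or within genotype, each library left out and, chosen after seeing the data, total reads as the library size. Positions and exon lengths came from GENCODE M21 (GRCm38). Python 3.11.15, pandas 2.3.3, scipy 1.17.1 and matplotlib 3.10.9 were used.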

Additional observations from a re-analysis of the deposited data

How the results depend on the processing

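Of the log2 fold changes of the 5 genes under the alternatives, 1107 kept their direction and side of the threshold, 26 lost the threshold, 19 gained it and 33 reversed, of which 13 were of *Icam2* and 14 of *Gata6*. *Cxcl13* had the most changes, 24, of which 10 lost the threshold and 12 gained it. The cause of these changes was not tested. *Selp* and *Gata6* had the lowest median reads per library of the 5 genes, at 6.5 and 19.5. A lone library left in a group was assumed to vary like the others.

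Of the 5 genes, 2 passed in WT at 4 hr, 3 in WT at 8 hr, 2 in S513A at 4 hr and 2 in S513A at 8 hr. These counts stood beside 41.3%, 34.3%, 43.2% and 39.9% of all genes tested. *Selp*, whose tests lend no support, is among them each time. With a mean of at least 5 CPM, which leaves 3 of the 5 genes, 1 passed in each of these comparisons. In that fit 4148, 3497, 4283 and 3983 of 9292 genes passed. For S513A at 4 hr, 1 passed with quantile normalization, 1 with voom weights and 1 with only the libraries compared, *Selp* being lost each time (limma adjusted p = 0.0544, 0.0516 and 0.0693). Of 11885 genes tested, 4942, 5099 and 5366 passed in these 3 fits. For S513A at 8 hr, 4 passed with total reads as the library size, which added *Gata6* and *Cxcl13* (limma adjusted p = 0.0425 and 0.0435). *Cxcl13* in WT at 4 hr passed with 1 CPM added before the log, quantile normalization and voom weights (limma adjusted p = 0.0328, 0.0226 and 0.0252). From 4 to 8 hr, 1 passed in WT with a prior without a trend, and 0 in S513A with voom weights and 0 with only the libraries compared, where *Cxcl13* was lost. Among all genes tested, 1402, 2067 and 596 passed in the same order. Between genotypes, 1 passed at 0 hr with only the libraries compared, beside 693 of 11885 genes tested. At 8 hr 0 passed with voom weights and 0 with only the libraries compared, where *Cxcl13* was at limma adjusted p = 0.222 and 0.188. In each of those 2 fits 1 of all genes tested passed. With 1 library left out, the counts ranged from 1 to 3 in WT at 4 hr, 0 to 2 in S513A at 4 hr, 1 to 4 in S513A at 8 hr, 0 to 1 in S513A from 4 to 8 hr and 0 to 1 between genotypes at 8 hr.

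*Icam2* reversed to -0.057 in WT at 8 hr with total reads, and between genotypes at 0 hr to -0.019 with median-ratio scaling and -0.10 with total reads. *Gata6* between genotypes at 8 hr reversed to 0.023 with quantile normalization and 0.0080 with total reads. The genotype difference of its response at 4 hr, at -0.02, reversed to 0.055 with 1 CPM added before the log, 0.0065 with median-ratio scaling, 0.018 with quantile normalization and 0.025 with total reads.

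With 1 library left out, *Icam2* ranged from -0.015 to 0.40 in WT at 8 hr, -0.80 to 0.24 in S513A at 8 hr and -0.42 to 0.62 in S513A from 4 to 8 hr. Between genotypes it ranged from -0.20 to 0.21 at 0 hr, -0.30 to 0.0034 at 4 hr and -0.98 to 0.052 at 8 hr, and *Gata6* from -0.97 to 0.081 at 0 hr and -0.81 to 0.71 at 8 hr. *Cxcl13* ranged from -0.64 to 0.18 in WT and *Timd4* from -0.017 to 0.65 in S513A from 4 to 8 hr. The genotype difference of the response at 4 hr ranged from -0.54 to 0.51 for *Gata6*, -0.69 to 0.025 for *Timd4*, -0.36 to 0.051 for *Icam2*, -0.18 to 0.79 for *Selp* and -0.77 to 0.052 for *Cxcl13*, and at 8 hr from -0.36 to 1.15 for *Gata6* and -0.99 to 0.048 for *Icam2*.

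Total reads as the library size moved the median of all genes by -0.27 and -0.25 in WT and -0.23 and -0.08 in S513A at 4 and 8 hr, by 0.15 in S513A from 4 to 8 hr, by -0.11 between genotypes at 0 hr and by 0.16 for the response at 8 hr. With it, 1594 genes rose and 3672 fell in WT at 4 hr (2684 and 2222 as reported), 1479 and 3123 in WT at 8 hr (2309 and 1770), 1769 and 3633 in S513A at 4 hr (2741 and 2396), 1954 and 2768 in S513A at 8 hr (2486 and 2258) and 1611 and 608 in S513A from 4 to 8 hr (1106 and 1069). With quantile normalization 1925 rose and 2366 fell in WT at 8 hr. With 1 library left out, 2489 to 4824 genes passed in WT at 8 hr (4079 as reported), 2994 to 5425 in S513A at 8 hr (4744), 554 to 2847 in WT from 4 to 8 hr (1690) and 665 to 3144 in S513A from 4 to 8 hr (2175). With only the libraries compared these last were 656 and 596, and 693 genes passed between genotypes at 0 hr. Between genotypes, 4, 2 and 4 genes passed as reported, and 0 to 693, 0 to 2 and 1 to 5 under the alternatives that leave out no replicate, and 0 to 5, 0 to 2 and 0 to 6 with 1 library left out.

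Replicate numbers were not shown to pair the samples. Within WT, the deviations of same-numbered libraries correlated at -0.21 (0 and 4 hr), 0.15 (0 and 8 hr) and -0.36 (4 and 8 hr). Within S513A they correlated at -0.03, -0.12 and 0.76 in the same order. Over all 15 pairs of groups, those across genotypes included, the range was -0.75 to 0.76, with 6 over 0.1 and 6 below -0.1. With the replicate block, 2, 3, 2 and 2 of the 5 genes passed in the 4 comparisons with 0 hr. Beside them, 4654, 3847, 4933 and 4464 of 11885 genes tested passed. Within genotype the block brought *Gata6* in S513A at 8 hr past the threshold (limma adjusted p = 0.0104). Over all genes the block gave 2, 1 and 3 calls between genotypes.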

Other observations

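Markers of leukocytes other than macrophages were few in these libraries. Of 7 neutrophil markers 2 were measured, and *Camp*, a granule peptide gene, had 0 to 4 reads per library at 0 hr and 15 to 36 with LPS. It reached the filter only through libraries with LPS, so its direction was set by the filter and no fold is given. *S100a8* rose in WT PECs at 8 hr and did not pass in the other 3 comparisons. Of 6 eosinophil markers 2 were measured, and *Siglecf* fell in all 4 comparisons, with log2 fold changes of -2.46 to -0.91, from 196 to 234 reads at 0 hr to 32 to 45 at 8 hr. The other, *Ccr3*, did not fall with it. It had 1 or 2 reads per library at 0 hr and 0 to 8 with LPS, and did not reach the filter. Mast cell markers summed to 18 to 41 reads per library, and *Cd4*, which was measured of 6 T cell markers, had 1 to 13 reads. *Dcn*, a fibroblast matrix gene, rose by 0.87 to 1.45 in the 4 comparisons, while the other 4 fibroblast markers did not pass. *Ms4a1*, a B cell marker, rose in S513A PECs at 4 hr and fell between 4 and 8 hr.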
